A study of Homo sapiens with 12 samples.

Results

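The change of gene expression after knockdown of TTK was averaged over CAL-27 and SCC-15, which are established lines of human oral squamous cell carcinoma. All 12 libraries of the study entered this average, 3 in each of 4 groups. The log2 fold change of shTTK against shControl was taken within each line, and the mean of the 2 changes was tested with the line kept as a factor. A gene is said here to have moved alike when the averaged change and the change in each line were called in the same direction, with a mean of at least 10 counts in each line. Of 16946 genes tested, 13887 met the count minimum, and 1147 of these moved alike. They comprised 480 higher and 667 lower genes after knockdown.

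The control groups are CAL-27 and SCC-15 cells named shControl, whose genotype field says WT and whose treatment field says untreated. The shTTK groups carry the genotype TTK knockdown in the same lines. Labels alone do not settle whether the controls carried a control hairpin, and they do not say whether the knockdown cells were clones or pools, or when they were harvested. Every library is placed in batch 1. Separate cultures are not stated for the numbered replicates, so p-values measure the spread between these libraries, which may be technical.

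TTK, also called MPS1, is a kinase of the spindle assembly checkpoint. It acts at kinetochores that are not attached to microtubules and delays anaphase until all chromosomes are attached. The series title joins it to mTORC1, a kinase complex that promotes the synthesis of lipid, protein and nucleotides, and to NF-kB, a family of transcription factors held in the cytoplasm by inhibitors such as IkB-alpha until IKK kinases release it. Since the CAL-27 and SCC-15 comparisons share no library, a gene's 2 within-line changes rest on separate samples.

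Total counts ranged from 16176655 to 18484112 per library, and CAL-27 and SCC-15 libraries lay apart on a first principal component that held 88.3% of the variance. Both SCC-15 groups had an outlying library, numbered 1, and without this pair 383 genes moved alike higher and 609 lower. Mitochondrially encoded genes took 4.24% to 4.32% of counts in the CAL-27 controls and 4.47% to 4.68% in CAL-27 shTTK. They took 2.94% to 3.86% in the SCC-15 controls and 2.35% to 2.69% in SCC-15 shTTK. All 8 epithelial identity markers had counts in every group. Of 12 leukocyte markers, 8 had counts in CAL-27 control, 7 in CAL-27 shTTK, 6 in SCC-15 control and 7 in SCC-15 shTTK, with CD3D, MS4A1 and TYROBP at 0 in all 4 groups and PTPRC at 0 in both CAL-27 groups. They summed to at most 15.5 CPM in CAL-27 control, 17.3 CPM in CAL-27 shTTK and 1.27 CPM in SCC-15 libraries. CPM are counts scaled to a common library size, with TMM factors for single genes and by total counts alone for every marker sum. CD14 was called higher in CAL-27 (log2 change 0.46, edgeR adjusted p = 0.0118). Of 9 endothelial markers, 7, 6, 6 and 5 had counts in the groups in the same order, with KDR and EMCN at 0 in all 4. Their sum was 102 to 109 CPM in CAL-27 control, 73.8 to 75.5 CPM in CAL-27 shTTK and at most 2.92 CPM in SCC-15 libraries. CDH5 made up most of it in CAL-27, and both CDH5 (log2 change -0.54; edgeR adjusted p = 4.94e-14) and PECAM1 (log2 change -1.42; edgeR adjusted p = 0.0138) were called lower in CAL-27. The part of these markers in the results below was not tested.

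The targeted gene, TTK (chromosome 6, 80003887 to 80042527, plus strand, GRCh38), was measured at 46.4, 48.4 and 53.4 CPM in the shControl and 35.6, 32.5 and 33.5 CPM in the shTTK libraries of CAL-27. TTK stood at 67.5, 69.4 and 72.9 CPM in the shControl and 26.9, 29.2 and 34.3 CPM in the shTTK libraries of SCC-15. In each line the 3 shTTK libraries lay below the 3 control libraries, and mean TTK was 68.6% of control in CAL-27 and 43.1% in SCC-15. Averaged over the lines, the log2 fold change of TTK was -0.88 ± 0.0463 (SE; edgeR adjusted p = 8.51e-26). TTK fell more in SCC-15, with a difference of -0.67 ± 0.093 (SE; edgeR adjusted p = 2.37e-08) between the lines (SCC-15 less CAL-27, as for every such difference below).

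An averaged call did not by itself mean that a gene changed in each line. Among the 16946 genes, 2122 were called higher (12.5%) and 2711 lower (16.0%) in the average, with 11.6% and 15.7% called in CAL-27 and 13.4% and 14.3% in SCC-15. With the count minimum, 4647 of 13887 genes were called in the average (33.5%). Of these, 1147 (24.7%) were called in both lines in the same direction, 1439 (31.0%) in CAL-27 only, 1549 (33.3%) in SCC-15 only, and 303 (6.52%) in neither line. The remaining 209 (4.50%) were called in opposite directions. Genes that moved alike thus made up 8.26% of those with the count minimum, 3.46% higher and 4.80% lower. Under the same minimum, CAL-27 alone had 30.8% called, SCC-15 alone 32.0%, and the difference between the lines 29.6%.

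**Figure D1:**
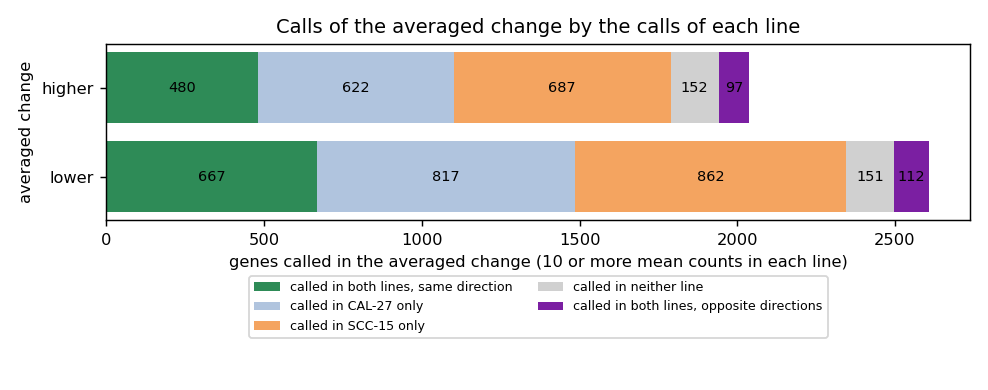
Number of genes called in the averaged change (horizontal axis, genes with at least 10 mean counts in each line), higher and lower after knockdown, divided by how they were called in the single lines. Genes called in both lines in the same direction number 480 among 2038 higher and 667 among 2609 lower calls, fewer than the genes called in SCC-15 only (687 and 862) or in CAL-27 only (622 and 817).

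Of 1940 genes called in both lines, 1147 (59.1%) had the same direction and 793 the opposite one. Each share below is set beside the share of all 13887 genes called that way in the other line. Of 2500 genes lower in CAL-27, 667 were also lower in SCC-15 (26.7%, against 16.3%), and 488 were higher there (19.5%, against 15.7%). Of 1776 genes higher in CAL-27, 480 were higher in SCC-15 (27.0%, against 15.7%) and 305 lower (17.2%, against 16.3%). Read from SCC-15, 480 of its 2180 higher genes were higher in CAL-27 (22.0%, against 12.8%) and 488 lower (22.4%, against 18.0%), nearly equal numbers. Of its 2261 lower genes, 667 were lower in CAL-27 (29.5%, against 18.0%) and 305 higher (13.5%, against 12.8%). Across genes, the changes of the lines had a Pearson correlation of 0.04 and a Spearman correlation of 0.08 (13887 genes), and of 0.11 and 0.13 among the 5673 genes with at least 500 mean counts. The correlations describe points from the same 12 libraries, and genes are not independent replicates.

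Agreement was not greater among the changes of at least 2-fold. Of 205 genes called in CAL-27 with an absolute log2 change of at least 1, 20.0% were called the same way in SCC-15 and 17.6% the opposite way. Among the 1901 called below 0.25, the shares were 28.9% and 20.4%. For the 210 large changes of SCC-15, 16.7% were called the same way in CAL-27 and 19.5% the opposite way. Genes that moved alike mostly changed by small amounts, with a median averaged log2 fold change of 0.29 for the higher genes (0.10 to 2.43) and of -0.28 for the lower ones (-1.79 to -0.09). Only 28 higher and 26 lower genes changed by at least 1.5-fold in both lines, and 4 and 4 by at least 2-fold. The 2 changes of a gene that moved alike could still differ in size. Their difference was called for 119 higher (24.8%) and 200 lower genes (30.0%), where 29.6% of all genes with the count minimum had a called difference. The share of the lower genes was thus near this background.

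**Figure D2:**
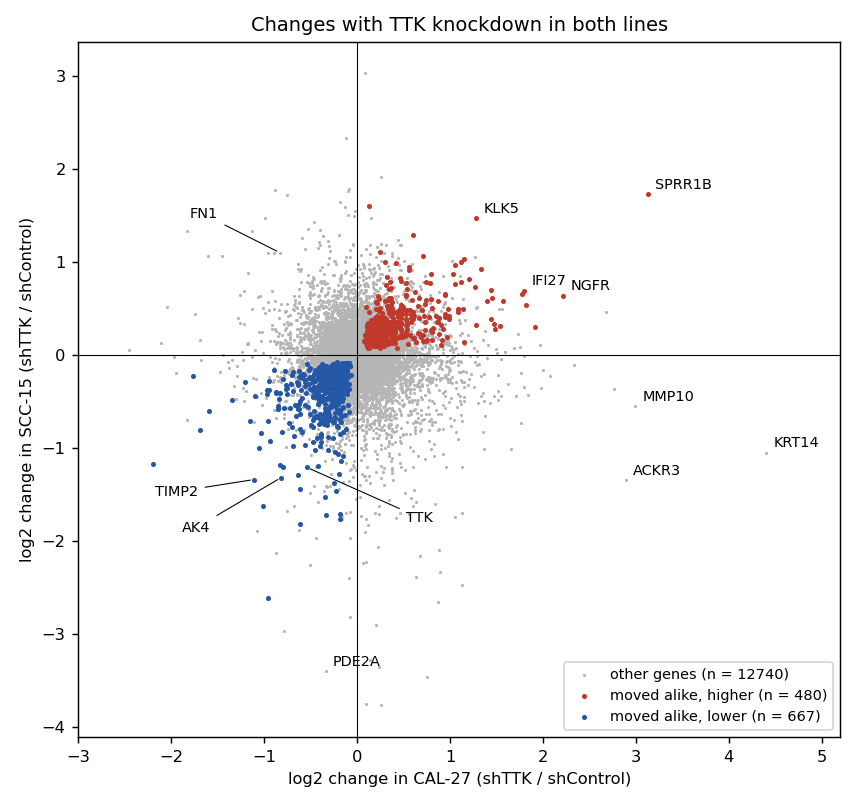
Log2 fold change of shTTK against shControl in CAL-27 (horizontal axis) and SCC-15 (vertical axis) for genes with at least 10 mean counts in each line, with genes that moved alike higher in red, lower in blue and all others in grey. SPRR1B, KLK5 and NGFR lie far into the upper right, TIMP2, AK4 and TTK into the lower left, and KRT14, called in opposite directions, lies at 4.40 in CAL-27 and -1.05 in SCC-15.

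The count minimum left 19 genes outside that met the other conditions. Just inside it lay SLIT2 and SYT16, each with a mean of 11 counts in SCC-15, and NMB with 11.5. Just outside lay ABHD11-AS1 with 9.83 counts and SNORA80B with 9.5, both in CAL-27. Protein-coding genes made up 94.8% of the genes alike higher and 98.4% of those alike lower, against 85.4% of all genes with the count minimum.

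KLK5 (chromosome 19, 50943303 to 50953093, minus strand), a kallikrein that starts the protease cascade of skin shedding, was measured at 1.94, 2.19 and 2.60 CPM in the shControl and 5.54, 5.09 and 5.72 CPM in the shTTK libraries of CAL-27. In SCC-15, KLK5 rose from 2.91, 3.10 and 1.94 CPM to 8.11, 7.20 and 6.76 CPM. The groups were separate in both lines, and the averaged log2 fold change of KLK5 was 1.37 ± 0.134 (SE; edgeR adjusted p = 6.05e-14). KLK10, a related kallikrein, rose by 1.48 on the log2 scale in CAL-27 and by 0.28 in SCC-15. MMP13 (chromosome 11, 102942995 to 102955734, minus strand), a collagenase, was measured at 5.95, 4.99 and 7.68 CPM in the shControl and 12.4, 12.1 and 13.9 CPM in the shTTK libraries of CAL-27. MMP13 in SCC-15 stood at 51.7, 53.5 and 53.6 CPM in control and 108, 104 and 98.8 CPM in shTTK libraries. The SCC-15 level was higher throughout, while the log2 changes were close, 1.05 in CAL-27 and 0.97 in SCC-15, and their average was 1.01 ± 0.0608 (SE; edgeR adjusted p = 5.34e-24). MMP1, another collagenase of the same cluster on chromosome 11, rose with log2 changes of 0.73 in CAL-27 and 0.55 in SCC-15.

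TIMP2 (chromosome 17, 78852977 to 78925387, minus strand), a tissue inhibitor of metalloproteinases, fell from 176, 191 and 189 CPM to 84.5, 90.3 and 83.2 CPM in CAL-27. TIMP2 in SCC-15 fell from 82.1, 83.7 and 84.7 CPM to 32.8, 32.0 and 33.9 CPM. Control and shTTK libraries did not overlap in either line, and the averaged log2 fold change was -1.22 ± 0.0327 (SE; edgeR adjusted p = 4.25e-45), which is 0.428 of control. TIMP2 fell more in SCC-15, with a difference between the lines of -0.23 ± 0.0661 (SE; edgeR adjusted p = 0.00449). Of other matrix genes, PCOLCE2, an enhancer of procollagen processing, fell with log2 changes of -0.73 in CAL-27 and -0.73 in SCC-15. IGFBP3, a carrier of insulin-like growth factors, rose by 0.87 in CAL-27 and 0.35 in SCC-15. The integrin subunit ITGA5 rose by 0.18 and 0.21. In all, 3 of 45 mesenchymal genes moved alike higher and 2 lower, with a median averaged change of 0.01.

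**Figure D3:**
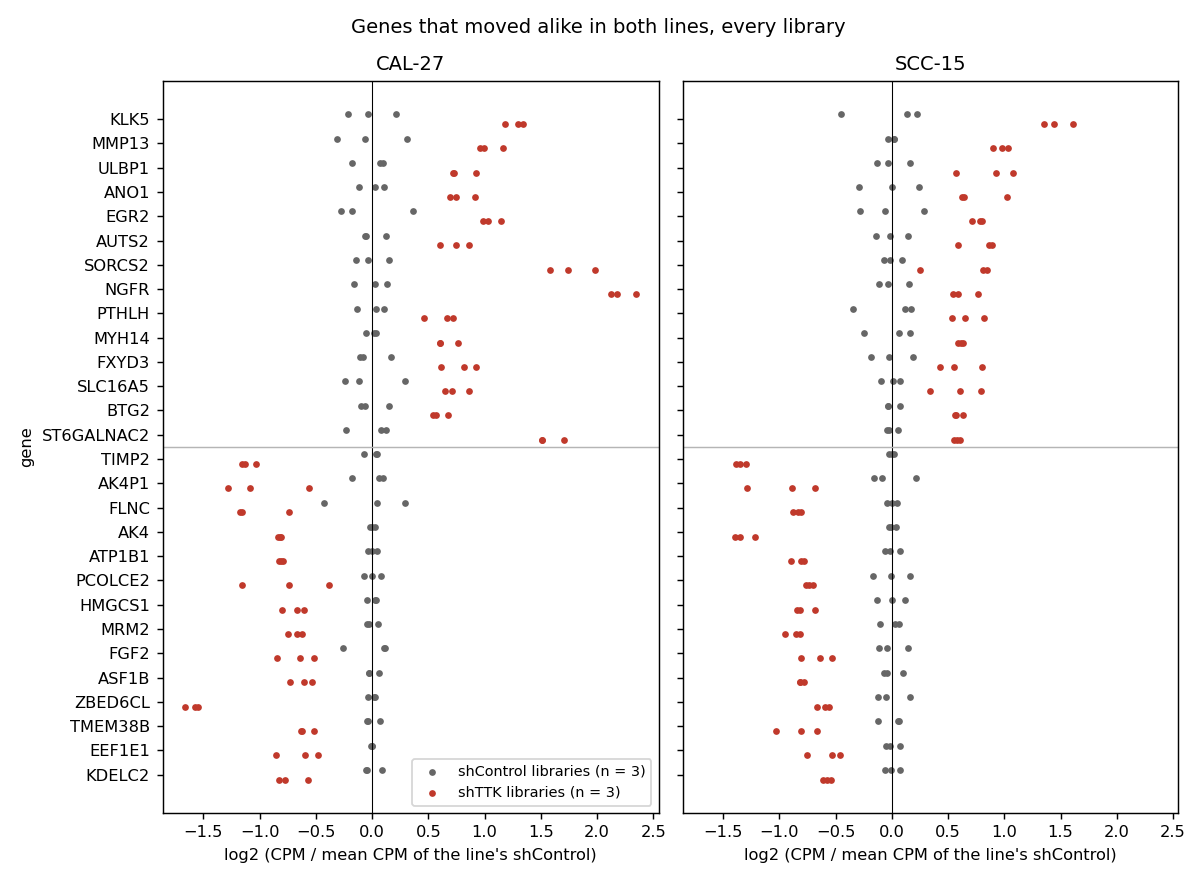
Each library of the 14 leading genes per direction that moved alike, as the log2 ratio of its CPM to the mean CPM of the controls of its line (horizontal axis), in grey for shControl and red for shTTK libraries, with CAL-27 and SCC-15 in separate panels. For KLK5, MMP13 and NGFR all 3 shTTK points of a line lie above its 3 control points, and for TIMP2, AK4, ATP1B1 and HMGCS1 all 3 lie below.

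Genes of basal keratinocytes had the largest share that moved alike higher among the lists with at least 10 tested members. Of 35 tested, 11 moved alike higher (31.4%) and 0 lower, against 2.83% and 3.94% of all 16946 tested genes. These shares are the background for every list unless another is given. In the average 28 were called higher and 2 lower. Among the 11 are both subunits of the hemidesmosomal integrin (ITGA6 and ITGB4), the hemidesmosomal collagen COL17A1, the anchoring fibril collagen COL7A1 and the linker DST. So are the laminin chains LAMA3 and LAMA5, the laminin receptor BCAM, the p75 neurotrophin receptor NGFR and the desmosomal membrane protein PERP. The summed epithelial identity markers were 4519 to 4644 CPM in CAL-27 control and 5296 to 5306 CPM in CAL-27 shTTK libraries. In SCC-15 they were 5665 to 5789.8 CPM and 5798 to 5860.4 CPM. Single markers moved against each other, with 4 of 8 called higher and 4 lower in CAL-27, and 3 and 2 in SCC-15. The lines had opposite calls for 5 markers and a called difference for 8. KRT8 had log2 changes of -0.68 in CAL-27 and 0.48 in SCC-15, and KRT17 of 1.35 and 0.16. The part of these markers in the result was not tested. In bulk RNA, a different number of cells of a type and a different amount of RNA per cell cannot be told apart, here and in the lists that follow.

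COL17A1 (chromosome 10, 104031286 to 104085957, minus strand) was measured at 398, 398 and 393 CPM in the shControl and 752, 740.4 and 755 CPM in the shTTK libraries of CAL-27. COL17A1 in SCC-15 went from 524, 516 and 528 CPM to 635, 642 and 633 CPM. Within a group the libraries differed by far less than the groups did, and the averaged log2 change was 0.60 ± 0.0206 (SE; edgeR adjusted p = 1.54e-38). The rise was smaller in SCC-15, with a difference of -0.63 ± 0.0411 (SE; edgeR adjusted p = 4.29e-22). NGFR, a marker of basal cells with stem cell properties, rose from 19.8, 22.6 and 24.3 CPM to 96.7, 113 and 100.3 CPM in CAL-27. NGFR in SCC-15 rose from 10.6, 11.2 and 12.8 CPM to 19.6, 17.3 and 16.8 CPM. Its log2 changes were 2.22 in CAL-27 and 0.64 in SCC-15, a called difference of -1.58 ± 0.118 (SE; edgeR adjusted p = 4.21e-18). A further 10 basal keratinocyte genes were called in opposite directions in the lines. KRT14, the basal keratin, was 1 of them, with 3.20, 4.33 and 2.79 CPM in the shControl and 69.8, 74.5 and 75.2 CPM in the shTTK libraries of CAL-27. KRT14 in SCC-15 fell from 729, 767 and 793 CPM to 379.6, 358 and 371 CPM. Its averaged log2 change of 1.68 lay between these opposite changes. KRT5, its partner, had log2 changes of 1.12 in CAL-27 and -0.27 in SCC-15, and the transcription factor TP63 of 1.10 in CAL-27 and -0.18 in SCC-15.

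Of 40 genes of squamous differentiation, 17 were called higher and 3 lower in the average, but 3 moved alike higher (7.50%) and 0 lower. The background was 2.83% and 3.94% of all tested genes. Those alike higher were SPRR1B, KLK5 and KLK10. A larger number, 8, were called in opposite directions. CAL-27 had 22 higher and 2 lower calls (median 0.95), and SCC-15 had 10 and 10 (median -0.01). SPRR1B (chromosome 1, 153031202 to 153032900, plus strand), a precursor of the cornified envelope, was measured at 0.515, 0.11 and 0.31 CPM in the shControl and 2.71, 2.42 and 3.14 CPM in the shTTK libraries of CAL-27. SPRR1B in SCC-15 rose from 1.14, 0.803 and 0.88 CPM to 3.67, 2.94 and 2.79 CPM. These are low levels, but no group overlapped another within a line, and the averaged log2 fold change of 2.43 ± 0.233 (SE; edgeR adjusted p = 3.08e-14) was the highest among genes that moved alike. DSP, the desmosomal plaque protein desmoplakin, rose with log2 changes of 0.41 in CAL-27 and 0.19 in SCC-15. ELF3, an epithelial transcription factor, rose with log2 changes of 0.35 in CAL-27 and 0.27 in SCC-15. Of the 42 epithelial junction genes, 3 moved alike higher and 2 lower, among the latter SPINT1, an inhibitor of membrane serine proteases (log2 changes -0.29 in CAL-27 and -0.44 in SCC-15).

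Promoter sequences are shown for SPRR1B and PERP, which moved alike higher, and for IL1A and AK4, which moved alike lower, because each holds a motif whose share is given below. They are RefSeq windows on GRCh38.p14 from 250 bases before to 50 bases after a transcription start, written from 5′ to 3′ on the strand of the gene. Capitals mark the AP-1 motif TGANTCA in the first 3 and the E-box CACGTG in the fourth.
SPRR1B, chr1:153030953-153031252, plus strand: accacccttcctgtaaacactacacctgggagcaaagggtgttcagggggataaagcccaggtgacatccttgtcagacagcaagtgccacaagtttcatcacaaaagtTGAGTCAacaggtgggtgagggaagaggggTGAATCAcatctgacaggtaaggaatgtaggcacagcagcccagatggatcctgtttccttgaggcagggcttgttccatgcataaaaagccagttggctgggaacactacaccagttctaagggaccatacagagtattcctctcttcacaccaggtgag
PERP, chr6:138107370-138107669, minus strand: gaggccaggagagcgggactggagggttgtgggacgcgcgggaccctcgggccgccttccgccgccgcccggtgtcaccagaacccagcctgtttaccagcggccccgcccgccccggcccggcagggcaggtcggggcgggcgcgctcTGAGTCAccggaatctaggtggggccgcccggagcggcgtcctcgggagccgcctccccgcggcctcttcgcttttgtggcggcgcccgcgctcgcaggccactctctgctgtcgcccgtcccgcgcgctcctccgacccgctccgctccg
IL1A, chr2:112784444-112784743, minus strand: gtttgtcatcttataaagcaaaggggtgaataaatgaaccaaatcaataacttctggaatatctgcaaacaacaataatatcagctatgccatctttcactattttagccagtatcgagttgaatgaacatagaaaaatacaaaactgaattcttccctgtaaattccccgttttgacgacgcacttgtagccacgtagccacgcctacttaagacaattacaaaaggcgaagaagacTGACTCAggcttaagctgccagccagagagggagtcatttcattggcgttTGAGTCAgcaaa
AK4, chr1:65147302-65147601, plus strand: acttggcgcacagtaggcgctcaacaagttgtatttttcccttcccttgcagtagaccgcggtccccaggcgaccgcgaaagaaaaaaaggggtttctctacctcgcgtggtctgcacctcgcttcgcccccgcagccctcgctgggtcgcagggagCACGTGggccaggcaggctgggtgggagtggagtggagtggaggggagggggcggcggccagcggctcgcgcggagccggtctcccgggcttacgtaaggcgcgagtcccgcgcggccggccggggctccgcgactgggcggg

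SPRR1B holds the AP-1 motif at 2 places and so does IL1A, although their transcripts moved in opposite directions. Over both strands, 6.47% of 371 alike-higher genes with a promoter window held TGANTCA, against 11.4% of 545 alike-lower genes and 7.09% of 10057 genes with the count minimum. CACGTG, which equals its own reverse complement, occurred in 11.9%, 17.4% and 12.8%. The cell cycle homology motif TTTGAA occurred in 8.89%, 13.2% and 13.4%. The sterol response element TCACNCCAC occurred in 1.89%, 1.47% and 1.31%, and the C/EBP-ATF element TGATGNAAT in 0.539%, 0.183% and 0.636%. Different motifs can share letters, so 1 stretch may hold more than 1 motif, and genes with several starts had several windows. A match describes letters in a window and is not evidence of binding.

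Among AP-1 and immediate early genes, more moved alike higher than lower. Of 42 tested, 25 were called higher and 7 lower in the average, with a median of 0.21. In this list 7 moved alike higher (16.7%) and 2 lower (4.76%). Over all tested genes 12.5% and 16.0% were called in the average, and 2.83% and 3.94% moved alike. The share alike lower was thus near the background. The higher genes were FOSL2, JUN, JUNB, EGR2, KLF10, BTG2 and MAFF, and the lower ones MYC and SPRED1, an inhibitor of Ras signalling. With limma-voom 13 moved alike higher, and 16 did so without CAL-27 shControl library 2. JUNB (chromosome 19, 12791496 to 12793315, plus strand) was measured at 658, 718 and 657 CPM in the shControl and 893, 896 and 858 CPM in the shTTK libraries of CAL-27. JUNB in SCC-15 rose from 407, 376 and 365 CPM to 561, 548 and 523 CPM, and its averaged log2 change was 0.44 ± 0.0252 (SE; edgeR adjusted p = 5.01e-18). JUN rose more in SCC-15, with log2 changes of 0.22 in CAL-27 and 0.63 in SCC-15. BTG2, an antiproliferative gene and p53 target, rose from 39.3, 45.6 and 38.3 CPM to 65.6, 60.0 and 60.8 CPM in CAL-27. BTG2 in SCC-15 rose from 32.7, 30.4 and 30.4 CPM to 46.1, 45.8 and 48.3 CPM. Its log2 change was 0.59 in both lines, with an average of 0.59 ± 0.0441 (SE; edgeR adjusted p = 3.36e-19). EGR2 had a larger averaged change of 0.91 ± 0.139 (SE; edgeR adjusted p = 0.00111), but it moved alike in only 10 of 20 settings of the fit. It no longer did so with no count filter, without both SCC-15 libraries numbered 1, without CAL-27 shTTK library 2 or 3, without SCC-15 shControl library 2 or 3, and without any 1 of the SCC-15 shTTK libraries.

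ANO1 (chromosome 11, 70078302 to 70189528, plus strand), a calcium-activated chloride channel often amplified in head and neck carcinoma, was measured at 15.0, 16.6 and 17.5 CPM in the shControl and 30.7, 27.3 and 26.3 CPM in the shTTK libraries of CAL-27. ANO1 in SCC-15 rose from 4.17, 5.11 and 6.04 CPM to 10.4, 7.95 and 7.88 CPM. Its log2 changes were nearly equal, 0.78 in CAL-27 and 0.77 in SCC-15, with an average of 0.78 ± 0.0824 (SE; edgeR adjusted p = 1.64e-12). ATP1B1 (chromosome 1, 169105697 to 169132722, plus strand), the beta subunit of the sodium pump, fell from 549.5, 580.2 and 562 CPM to 325, 317 and 321 CPM in CAL-27. ATP1B1 in SCC-15 fell from 68.5, 64.4 and 62.4 CPM to 34.9, 37.9 and 37.2 CPM, a line in which its level was lower throughout. The averaged log2 change of ATP1B1 was -0.82 ± 0.0280 (SE; edgeR adjusted p = 1.54e-38). FXYD3, a regulatory subunit of the same pump, rose with log2 changes of 0.79 in CAL-27 and 0.60 in SCC-15. SLC16A5, a monocarboxylate transporter of the plasma membrane, rose by 0.74 and 0.59, and TMEM38B, a cation channel of the endoplasmic reticulum, fell by 0.59 and 0.83.

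ULBP1 (chromosome 6, 149964007 to 149973710, plus strand), a ligand of the natural killer receptor NKG2D, was measured at 4.63, 4.72 and 3.90 CPM in the shControl and 8.37, 7.27 and 7.32 CPM in the shTTK libraries of CAL-27. ULBP1 in SCC-15 rose from 2.91, 3.56 and 3.11 CPM to 6.06, 6.74 and 4.75 CPM. Averaged over the lines, the log2 change was 0.83 ± 0.119 (SE; edgeR adjusted p = 2.37e-08), and the ranges of the groups were separate in both lines. PTHLH, the parathyroid hormone-related protein that squamous tumours secrete, rose with log2 changes of 0.62 in CAL-27 and 0.68 in SCC-15. FGF2, a fibroblast growth factor, fell from 18.7, 18.6 and 14.5 CPM to 12.1, 9.64 and 11.1 CPM in CAL-27. FGF2 in SCC-15 fell from 56.8, 47.5 and 49.7 CPM to 29.3, 35.5 and 32.9 CPM, and its log2 change was -0.66 in both lines, with an average of -0.66 ± 0.0662 (SE; edgeR adjusted p = 4.01e-11). ST6GALNAC2, a sialyltransferase, and SORCS2, a sorting receptor, rose more in CAL-27, with log2 changes of 1.57 and 1.77 against 0.58 and 0.66 in SCC-15. MYH14, a nonmuscle myosin heavy chain, rose by 0.66 and 0.61, and AUTS2 rose by 0.74 and 0.79. FLNC (chromosome 7, 128830377 to 128859274, plus strand), an actin crosslinking filamin, fell with log2 changes of -1.03 in CAL-27 and -0.84 in SCC-15. FLNC levels differed greatly between the lines, with 5.32, 6.31 and 3.84 CPM in CAL-27 control and 181, 186 and 192 CPM in SCC-15 control libraries.

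FGF2 and SORCS2 lie on chromosome 4, as do MSMO1, ELOVL6, PPAT, SLBP, TACC3 and CCNA2, which are members of the lists below that moved alike lower. Of 457 chromosome 4 genes with the count minimum, 228 were called lower and 11 higher in SCC-15, with a median log2 change of -0.24, while the median in CAL-27 was -0.03. CCNA2 and TACC3 had SCC-15 log2 changes of -0.24 and -0.25, about that median, and those of FGF2 and PPAT were -0.66 and -1.07. Of the same 457 genes, 49 (10.7%) moved alike lower and 3 (0.656%) higher, against 4.80% and 3.46% over all chromosomes. Among the other chromosomes, 8.53% of chromosome 11 genes and 8.08% of chromosome 17 genes moved alike lower. On chromosomes 20 and 19, 6.77% and 5.52% moved alike higher, and the SCC-15 medians there were 0.14 and 0.08. The part of these shifts in the results for single genes was not tested. Refitted without chromosome 4, a check chosen after seeing the data, 538 genes moved alike higher and 557 lower. In that fit, 9 cholesterol, 4 fatty acid, 6 S phase and 5 G2 and mitosis genes were alike lower. MSMO1, ELOVL6, SLBP, TACC3 and CCNA2 were absent from it because they lie on chromosome 4. These list counts therefore do not check the lists against the chromosome 4 shift.

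Genes of cholesterol synthesis had the largest share that moved alike lower among the lists. Of 25 genes of sterol synthesis, its regulation and uptake, 10 moved alike lower (40.0%) and 0 higher, and 21 were called lower and 1 higher in the average. Among them are genes along the pathway from HMGCS1, the HMG-CoA synthase, over MVK, IDI1 and FDFT1 to SQLE, LSS, MSMO1 and HSD17B7, which epoxidize squalene and close and trim the sterol rings. SREBF2, the transcription factor gene of the pathway, is another. HMGCS1 (chromosome 5, 43289395 to 43313512, minus strand) was measured at 136, 135 and 129 CPM in the shControl and 83.6, 76.1 and 87.4 CPM in the shTTK libraries of CAL-27. HMGCS1 in SCC-15 fell from 78.5, 72.4 and 66.1 CPM to 41.0, 40.2 and 44.9 CPM. The mean of both log2 changes was -0.74 ± 0.0373 (SE; edgeR adjusted p = 4.03e-24), with no overlap of the groups in either line. MSMO1, the sterol demethylating oxidase, fell from 80.5, 81.2 and 81.0 CPM to 43.8, 43.8 and 52.2 CPM in CAL-27 and from 20.3, 19.5 and 18.6 CPM to 11.3, 13.5 and 14.4 CPM in SCC-15. Its log2 changes were -0.79 in CAL-27 and -0.57 in SCC-15.

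The decrease of cholesterol genes was mostly smaller in SCC-15. SQLE, the squalene epoxidase, had log2 changes of -0.75 in CAL-27 and -0.42 in SCC-15, a difference of 0.33 ± 0.0696 (SE; edgeR adjusted p = 1.01e-04). FDFT1, the squalene synthase, had -0.56 in CAL-27 and -0.27 in SCC-15, and LSS, the lanosterol synthase, -0.59 in CAL-27 and -0.25 in SCC-15. The difference between the lines was called for 18 of the 25. The medians over the list were -0.39 in CAL-27 and -0.04 in SCC-15. FDPS, the farnesyl diphosphate synthase, was called in opposite directions, with log2 changes of -0.30 in CAL-27 and 0.11 in SCC-15. SREBF2 was the reverse in size, with -0.16 in CAL-27 and -0.32 in SCC-15. The sterol motif TCACNCCAC was found in the promoter windows of 1 of 18 cholesterol genes with a window, SREBF2.

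**Figure D4:**
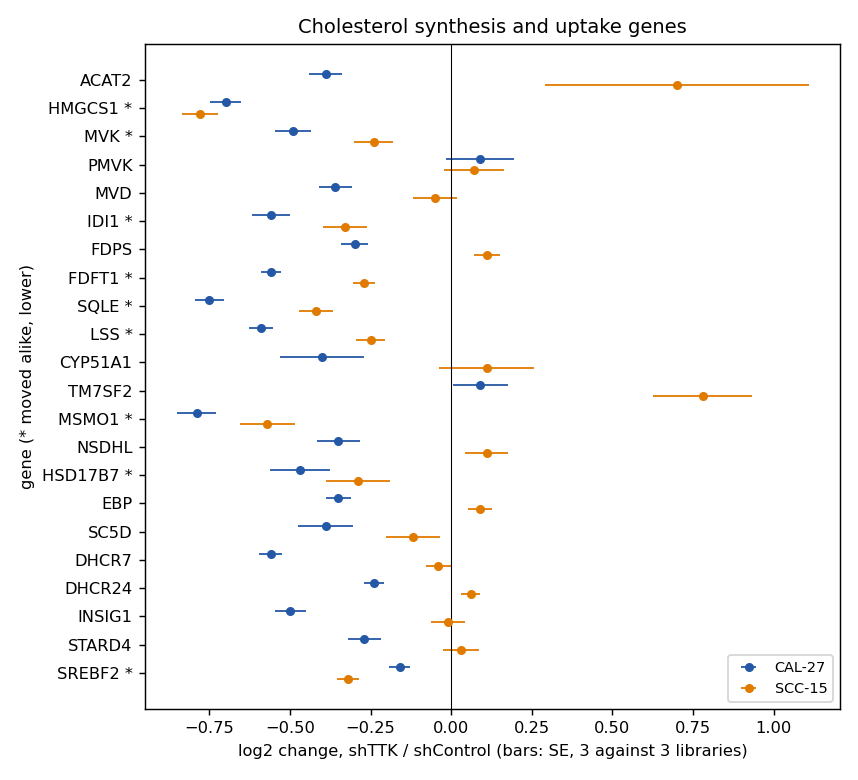
Log2 fold change of shTTK against shControl for the cholesterol genes reported here in CAL-27 and SCC-15, with bars for the standard error. CAL-27 points lie below 0 except for PMVK and TM7SF2, whereas SCC-15 points lie on both sides, and the long SCC-15 bar belongs to ACAT2, which was not called there (edgeR adjusted p = 0.239).

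Of 19 genes of fatty acid synthesis and desaturation, 5 moved alike lower (26.3%) and 0 higher. They were ACACA, the acetyl-CoA carboxylase, FASN, the fatty acid synthase, SCD, the desaturase, ELOVL6, an elongase, and ME1, the malic enzyme that supplies NADPH. FASN was measured at 1541, 1589 and 1540.3 CPM in the shControl and 1075, 1076 and 1098 CPM in the shTTK libraries of CAL-27. FASN in SCC-15 fell from 1840.2, 1872 and 1825 CPM to 1744, 1611 and 1595 CPM. The averaged log2 change of FASN was -0.34 ± 0.0201 (SE; edgeR adjusted p = 1.20e-24), and the fall was larger in CAL-27, with a difference of 0.36 ± 0.0402 (SE; edgeR adjusted p = 1.16e-11). ACACA went the other way, with log2 changes of -0.20 in CAL-27 and -0.39 in SCC-15. ZBED6CL and KDELC2 are further named lower genes outside these lists, with averaged log2 changes of -1.10 and -0.65.

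mTORC1 is represented by 93 genes that respond to its activity. Of these, 16 moved alike lower (17.2%) and 5 higher (5.38%), and 42 were called lower and 26 higher in the average, with a median of -0.04. A larger number, 18, were called in opposite directions. CAL-27 had 46 lower and 23 higher calls (median -0.08), and SCC-15 had 31 and 26 (median -0.02). Of the 16, 5 belong also to the cholesterol and fatty acid lists. Among the 79 members outside those lists, 11 moved alike lower and 5 higher. The count of higher members was 8 without SCC-15 shControl library 2 or 3 or shTTK library 2, 9 without SCC-15 shTTK library 1, 9 with no count filter, and 8 without the genes of chromosome 4. The leading member was AK4 (chromosome 1, 65147549 to 65232145, plus strand), a mitochondrial adenylate kinase, measured at 168, 173 and 169.6 CPM in the shControl and 96.5, 97.1 and 95.4 CPM in the shTTK libraries of CAL-27. AK4 in SCC-15 fell from 73.0, 74.1 and 76.2 CPM to 28.2, 29.1 and 32.0 CPM. On average its log2 change was -1.07 ± 0.0328 (SE; edgeR adjusted p = 2.78e-41), and the fall was larger in SCC-15, with a difference of -0.50 ± 0.0662 (SE; edgeR adjusted p = 3.69e-09). AK4P1, a processed pseudogene of AK4 on chromosome 17, fell with log2 changes of -0.94 in CAL-27 and -0.93 in SCC-15. How reads were divided between AK4 and its copy is not given, so the counts of both are uncertain.

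SLC1A5, the glutamine transporter and a member that rose, was measured at 314, 322 and 324 CPM in the shControl and 391, 376 and 406 CPM in the shTTK libraries of CAL-27. SLC1A5 in SCC-15 rose from 264, 265 and 271 CPM to 339, 327 and 323 CPM. Over both lines the log2 change averaged 0.30 (edgeR adjusted p = 7.43e-19). PPAT, the first enzyme of purine synthesis, had log2 changes of -0.21 in CAL-27 and -1.07 in SCC-15. Of the 47 genes that encode the mTOR complexes and their regulators, 2 moved alike lower (4.26%) and 0 higher. The lower share was near the 3.94% of all tested genes. RPTOR (chromosome 17, 80544819 to 80966371, plus strand), the scaffold of mTORC1, fell from 85.7, 87.8 and 83.3 CPM to 66.5, 65.1 and 69.8 CPM in CAL-27. RPTOR in SCC-15 fell from 84.2, 83.2 and 84.6 CPM to 59.4, 56.0 and 54.2 CPM. Averaged over the lines, the log2 change was -0.46 ± 0.0339 (SE; edgeR adjusted p = 1.58e-19). MAPKAP1, a subunit of mTORC2, had log2 changes of -0.12 in CAL-27 and -0.31 in SCC-15, and its call was lost without CAL-27 shControl library 2 or shTTK library 1 or 3.

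Of 53 genes of the ATF4 and unfolded protein response, 9 moved alike higher (17.0%) and 2 lower (3.77%), with 25 and 9 called in the average. Over all tested genes the shares were 2.83% and 3.94% alike, and 12.5% and 16.0% in the average. The share alike lower was thus near the background. More members of the list, 12, were called in opposite directions. The lines had 24 higher and 13 lower calls (CAL-27) and 19 and 12 (SCC-15). The tRNA synthetase genes AARS, SARS, CARS, NARS and WARS all moved alike higher, with averaged log2 changes of 0.28, 0.31, 0.24, 0.17 and 0.17. The amino acid transporter SLC1A4 rose by 0.73 in CAL-27 and 0.27 in SCC-15, and HERPUD1, of endoplasmic reticulum degradation, by 0.53 and 0.32. Some of these genes are shared with the mTORC1-responsive list. EEF1E1 and AIMP2, scaffold proteins of the synthetase complex, fell with averaged log2 changes of -0.61 and -0.33. SLC38A2, another amino acid transporter, and DNAJC3 also moved alike lower, with averaged log2 changes of -0.19 and -0.32.

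NF-kB targets that moved alike did so mostly downward. Of 62 tested, 8 moved alike lower (12.9%) and 1 higher (1.61%), with 26 and 10 called in the average and a median of -0.17. The shares over all tested genes were 3.94% and 2.83% alike, and 16.0% and 12.5% in the average. The lower members were the inhibitor gene NFKBIA, the survival genes BIRC3 and CFLAR, the adhesion receptor ICAM1, the cytokines IL1A, IL1B and IL32, and SOD2, the mitochondrial superoxide dismutase. The higher one was MMP1. As many as 8 targets were called in opposite directions in the lines. CAL-27 had 29 lower and 6 higher calls with a median of -0.18. SCC-15 had 16 lower and 14 higher calls with a median of -0.02. NFKBIA (chromosome 14, 35401511 to 35404749, minus strand), which encodes IkB-alpha, fell from 486, 560.3 and 527 CPM to 402, 378 and 405 CPM in CAL-27. NFKBIA in SCC-15 fell from 59.1, 59.7 and 59.2 CPM to 46.5, 38.7 and 41.9 CPM. The mean of both log2 changes was -0.45 ± 0.0407 (SE; edgeR adjusted p = 4.67e-08), with similar changes of -0.41 in CAL-27 and -0.49 in SCC-15.

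IL1A, whose promoter window is printed above, was measured at 653, 747 and 692 CPM in the shControl and 539, 529 and 542 CPM in the shTTK libraries of CAL-27. IL1A in SCC-15 fell from 83.5, 82.7 and 78.6 CPM to 57.1, 62.8 and 60.6 CPM. On average its log2 change was -0.41 ± 0.0279 (SE; edgeR adjusted p = 1.65e-18). ICAM1 fell from 368, 397 and 380.1 CPM to 329, 354 and 338 CPM in CAL-27, a narrow gap. ICAM1 in SCC-15 fell from 24.1, 23.9 and 23.0 CPM to 9.97, 12.4 and 9.95 CPM. Its log2 changes were thus -0.17 in CAL-27 and -1.14 in SCC-15, a called difference of -0.97 ± 0.0804 (SE; edgeR adjusted p = 1.07e-16). IL1B showed the same order of sizes, with -0.20 in CAL-27 and -1.28 in SCC-15. Of 34 genes for NF-kB subunits, IKK kinases and their adaptors, 6 moved alike lower (17.6%) and 0 higher. They were CHUK, the kinase IKK-alpha, IKBKE, IKK-epsilon, the adaptors TAB3 and TRAF3, and BIRC3 and NFKBIA, which are also in the target list. Their averaged log2 changes ran from -0.54 for BIRC3 to -0.19 for TRAF3. Without both SCC-15 libraries numbered 1, 3 of them were counted, and TAB3 was lost without SCC-15 shTTK library 1 alone.

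**Figure D5:**
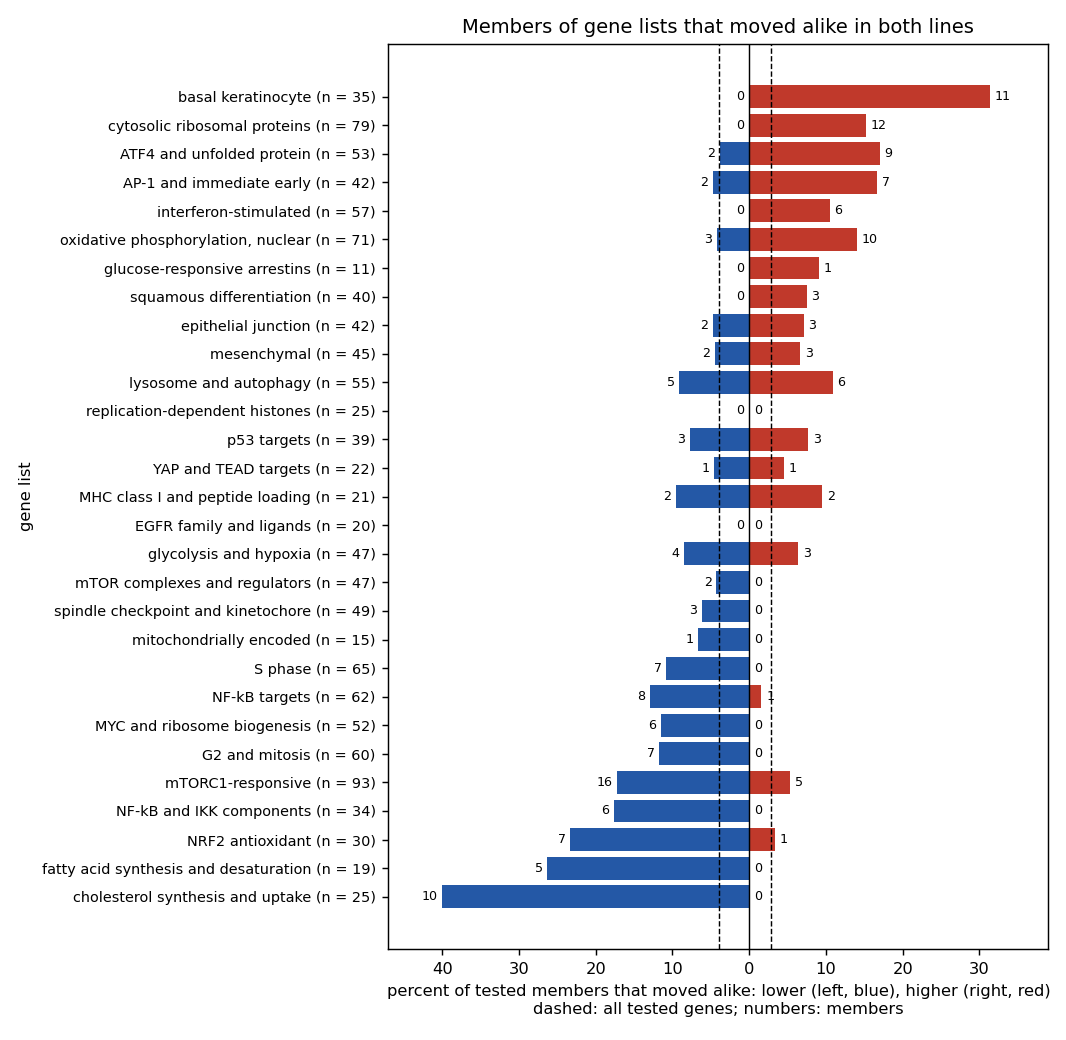
Percentage of tested genes of each list (vertical axis) that moved alike lower (blue bars to the left) or higher (red bars to the right) after knockdown, with the number of genes at each bar and the percentages over all tested genes (2.83% higher and 3.94% lower) as dashed lines. The cholesterol list has 40.0% alike lower and the basal keratinocyte list 31.4% alike higher, and most other lists hold under 20%.

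Cell division genes that moved alike were few and all lower in the 3 lists examined. Of 49 spindle checkpoint and kinetochore genes, TTK, CENPM and SKA2 moved alike lower (6.12%), against 4.80% of all genes with the count minimum. TTK is the target of the knockdown, so its fall is not a result about this list, and the share is near that background. SKA2 lost that call without CAL-27 shControl library 1 or shTTK library 2 or 3. Of 65 S phase genes, 7 moved alike lower (10.8%), namely the replication genes MCM3, FEN1, GINS2 and UNG, the histone mRNA binding gene SLBP, and E2F1 and ASF1B. Of 60 genes of G2 and mitosis, 7 moved alike lower (11.7%), namely the spindle and cytokinesis genes TACC3, TUBB4B and ANLN, the cyclin CCNA2, the chromatin and lamina genes CBX5 and LBR, and FOXM1, which lost the call without both SCC-15 libraries numbered 1. No gene of these lists moved alike higher, while 5, 12 and 8 genes of the lists were called in opposite directions. The 4.80% is also the background of the S phase and the G2 and mitosis shares. In CAL-27 the lower calls were 16, 30 and 21 and the higher calls 1, 1 and 0, in the order of the lists. SCC-15 had 11, 12 and 12 lower calls and 9, 17 and 12 higher ones. The median log2 changes were -0.08, -0.13 and -0.09 in CAL-27 and -0.03, 0.02 and 0.00 in SCC-15.

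ASF1B (chromosome 19, 14119509 to 14136956, minus strand), a histone chaperone, was measured at 149, 149 and 159 CPM in the shControl and 99.8, 91.7 and 105 CPM in the shTTK libraries of CAL-27. ASF1B in SCC-15 fell from 153, 136 and 139 CPM to 81.2, 83.4 and 81.4 CPM. Over both lines the log2 change averaged -0.71 ± 0.0309 (SE; edgeR adjusted p = 5.51e-30). CBX5, which encodes the heterochromatin protein HP1-alpha, fell from 39.4, 37.1 and 37.3 CPM to 32.9, 30.9 and 32.2 CPM in CAL-27. CBX5 in SCC-15 fell from 201, 211 and 199 CPM to 77.1, 78.6 and 79.1 CPM. Levels were lower in CAL-27 and the change was much larger in SCC-15, with log2 changes of -0.25 in CAL-27 and -1.38 in SCC-15. LBR, the lamin B receptor, had the reverse pattern, with -0.63 in CAL-27 and -0.17 in SCC-15. Of 39 p53 targets, 3 moved alike higher (7.69%) and 3 lower (7.69%), against 2.83% and 3.94% of all tested genes. PERP and BTG2 were among the higher ones. Among the lower ones were the apoptosis nuclease gene AEN, with an averaged log2 change of -0.62, and MDM2, whose product degrades p53, with -0.36. Of 25 replication-dependent histone genes tested, 16 met the count minimum, without which a gene cannot move alike here, and 0 moved alike. The share over all genes with the minimum was 8.26%, so a 0 in so small a list is not read as a result.

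Of 52 MYC and ribosome biogenesis genes, 6 moved alike lower (11.5%) and 0 higher, and 9 were called in opposite directions. In CAL-27, 24 were called lower and 0 higher, with a median log2 change of -0.11, whereas in SCC-15 9 were called lower and 16 higher, with a median of 0.06. The 6 alike lower genes include UTP20, of the small subunit processome, with an averaged log2 change of -0.42 ± 0.0388 (SE; edgeR adjusted p = 1.95e-14). The count was 2 with no count filter and without SCC-15 shControl library 2 or 3 or shTTK library 2. Of 79 cytosolic ribosomal protein genes, 12 moved alike higher (15.2%) and 0 lower, all by small amounts. The background was 2.83% and 3.94% of all tested genes. RPL31 had the largest averaged change of the 12, 0.20 ± 0.0219 (SE; edgeR adjusted p = 2.76e-12). Their count was 6 without SCC-15 shControl library 1 and 19 without SCC-15 shControl library 3. MRM2, a methyltransferase of mitochondrial ribosomal RNA, fell from 108, 101 and 102 CPM to 65.5, 62.0 and 67.7 CPM in CAL-27. MRM2 in SCC-15 fell from 59.2, 65.0 and 66.6 CPM to 32.9, 36.0 and 35.2 CPM, and the averaged log2 change was -0.77 ± 0.0374 (SE; edgeR adjusted p = 1.88e-29).

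Of 71 nuclear genes of oxidative phosphorylation, 10 moved alike higher (14.1%) and 3 lower (4.23%). The background was 2.83% and 3.94% of all tested genes, so the lower share was near it. The higher count was 5 without SCC-15 shControl library 1, and 4 without both SCC-15 libraries numbered 1. UQCRB, a subunit of complex III, stood against this direction. UQCRB fell from 90.7, 90.5 and 94.1 CPM to 78.3, 69.7 and 74.0 CPM in CAL-27. UQCRB in SCC-15 fell from 137, 141 and 143 CPM to 63.6, 71.7 and 72.3 CPM. Averaged over the lines, the log2 change was -0.66 ± 0.0324 (SE; edgeR adjusted p = 3.55e-29), whereas UQCRH of the same complex rose by 0.21 on average and UQCRQ fell by 0.27. Of 15 mitochondrially encoded genes, 1 moved alike lower and 2 were called in opposite directions. Their median log2 changes were 0.06 in CAL-27 and -0.31 in SCC-15. The share of mitochondrial counts was lower in all SCC-15 shTTK libraries than in the SCC-15 controls, as given above. In CAL-27 that share was higher in all shTTK libraries (4.68%, 4.57% and 4.47%) than in the controls (4.24%, 4.31% and 4.32%). The part of this share in these counts was not tested. Of 47 glycolysis and hypoxia genes, 3 moved alike higher and 4 lower, with AK4 the leading one.

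The NRF2 antioxidant list, which holds the NRF2 inhibitor KEAP1 beside antioxidant genes, had 7 of 30 alike lower (23.3%) and 1 higher (3.33%). Over all tested genes the shares were 3.94% and 2.83%. In the list, 9 genes were called in opposite directions. The lower ones were KEAP1, which holds NRF2 in check, the heme oxygenase HMOX1, GCLM of glutathione synthesis, TXNRD1, ME1, the ferritin chain FTH1 and the autophagy receptor SQSTM1. The count was 4 without SCC-15 shTTK library 2, and GCLM lost the call without that library or SCC-15 shControl library 1. SQSTM1 (chromosome 5, 179806398 to 179838078, plus strand) fell from 571, 553 and 559 CPM to 446, 424 and 449.7 CPM in CAL-27. SQSTM1 in SCC-15 fell from 331, 316 and 328 CPM to 256, 248 and 238 CPM. The mean of both log2 changes was -0.37 ± 0.0225 (SE; edgeR adjusted p = 5.16e-24). FTH1 fell more in CAL-27, with log2 changes of -0.51 in CAL-27 and -0.25 in SCC-15. Of 55 lysosome and autophagy genes, 6 moved alike higher (10.9%) and 5 lower (9.09%), against 2.83% and 3.94% of all tested genes. The cathepsin genes CTSB, CTSD and CTSZ were among the higher ones, with averaged log2 changes of 0.30, 0.18 and 0.21. The sialidase NEU1 and the proton pump subunits ATP6V0D1 and ATP6V1A were among the lower ones, with -0.48, -0.26 and -0.24.

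Interferon-stimulated genes moved alike higher in 6 of 57 (10.5%) and lower in 0, against 2.83% and 3.94% of all tested genes. The 6 were IFI27, OAS2, RSAD2, SAMD9, BST2 and HELZ2. IFI27 (chromosome 14, 94104836 to 94116698, plus strand) rose from 11.3, 12.5 and 11.6 CPM to 40.5, 42.6 and 40.6 CPM in CAL-27. IFI27 in SCC-15 rose from 2.11, 2.18 and 1.94 CPM to 3.50, 3.46 and 3.13 CPM, a low level. On average its log2 change was 1.25 ± 0.0988 (SE; edgeR adjusted p = 5.44e-18), and the difference between the lines was -1.11 ± 0.204 (SE; edgeR adjusted p = 1.07e-05). Of this list, 9 genes were called in opposite directions, and 14 were called lower in SCC-15. Of 21 MHC class I and peptide loading genes, 2 moved alike higher and 2 lower. HLA-E rose by 0.20 and HLA-F by 0.32 on average.

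Of the remaining lists, YAP and TEAD targets had 1 gene alike higher and 1 lower of 22, and the glucose-responsive arrestins 1 higher and 0 lower of 11. None of 20 EGFR family genes and ligands moved alike. Fibroblast markers had 1 of 7 tested alike higher, FBLN1 (log2 changes 0.39 in CAL-27 and 0.21 in SCC-15). In the average 2 of the 7 were called higher and 2 lower. CAL-27 had 4 higher and 0 lower calls, and SCC-15 had 1 and 2. C1S had log2 changes of -0.08 in CAL-27 and -1.97 in SCC-15, and C1R of 0.26 and -1.32. COL1A1 had 0.36 in CAL-27 and 0.02 in SCC-15. The summed fibroblast markers were 351 to 356 CPM in CAL-27 control and 396 to 412 CPM in CAL-27 shTTK, and 238 to 249 CPM and 214 to 217 CPM in SCC-15. DCN stood at 0 in both CAL-27 groups, and COL1A2 at 0 in both SCC-15 groups. No leukocyte, endothelial or epithelial identity marker moved alike.

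A further 793 genes were called in both lines in opposite directions, 305 higher and 488 lower in CAL-27. The averaged change was called for 209 of them. FN1 (chromosome 2, 215360440 to 215436172, minus strand), the matrix protein fibronectin, fell from 258, 265 and 268 CPM to 158, 148 and 138 CPM in CAL-27. FN1 in SCC-15 rose from 50.7, 54.1 and 50.9 CPM to 110.0, 105 and 119 CPM. The averaged log2 change of FN1, 0.14 ± 0.0306 (SE; edgeR adjusted p = 2.98e-04), was still called. PLAUR, the urokinase receptor, had log2 changes of -0.63 in CAL-27 and 0.71 in SCC-15 and an average of 0.04 (edgeR adjusted p = 0.586). DUSP4, a phosphatase of MAP kinases, had -1.22 in CAL-27 and 0.69 in SCC-15, and GPAT3, of glycerolipid synthesis, -0.92 in CAL-27 and 0.69 in SCC-15. The reverse order held for ACKR3, a chemokine receptor, with 2.89 in CAL-27 and -1.35 in SCC-15. AKR1C2, a ketosteroid reductase, had 1.66 in CAL-27 and -1.01 in SCC-15, and ZNF750, an epidermal transcription factor, 1.05 in CAL-27 and -1.74 in SCC-15. AKR1C2 was called in the average at 0.32 ± 0.108 (SE; edgeR adjusted p = 0.0162), a call that was lost with limma-voom and without CAL-27 shControl library 2. ZNF750, not called in the average, was called without CAL-27 shControl library 1 at -0.52.

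Other genes were called in the average and in only 1 of the lines. MMP10, a stromelysin, had an averaged log2 change of 1.22 from 2.99 in CAL-27 and -0.55 in SCC-15. PRKCQ, a protein kinase C, had 1.11 from -0.12 in CAL-27 and 2.34 in SCC-15, and CKMT1B, a mitochondrial creatine kinase with a near-identical copy, 1.57 from 2.68 in CAL-27 and 0.46 in SCC-15. Among lower genes, MAP6, a microtubule-stabilizing protein, had -1.88 from -0.79 in CAL-27 and -2.97 in SCC-15. PDE2A, a cyclic nucleotide phosphodiesterase, had -1.87 from -0.34 in CAL-27 and -3.40 in SCC-15, and CPE, a carboxypeptidase of prohormones, -1.82 from 0.10 in CAL-27 and -3.75 in SCC-15. The difference between the lines was called for 5 of these 6 genes, and that of CKMT1B, -2.22 ± 0.784 (SE; edgeR adjusted p = 0.0683), was not.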

How the data were processed

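The 12 poly(A) libraries, strand-specific per the labels' protocols, were deposited as 1 table of raw counts with gene symbols and no normalization. Tools listed in the submitters' processing notes are featureCounts 2.0.1, STAR 2.7.7a and Trim Galore 0.6.6, with build hg38. Not given in the sources used here are the annotation release, the strand setting and how reads with several matches were counted. No column was unmapped (0). Of 58735 lines, 1568 repeat a symbol and were kept apart, and 27 carry a date (0.183% of counts). Total counts per library limit the precision of low genes, and intervals cover only the spread between libraries.

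Under R 4.3.3 with limma 3.58.1, edgeR 4.0.16 was used for a quasi-likelihood fit of 4 group means, with TMM scaling, filterByExpr on the groups and robust dispersions over the 12 libraries (8 residual degrees of freedom per gene, common biological coefficient of variation 0.0393). The contrasts were the mean of the within-line changes, each line's change, and the SCC-15 minus the CAL-27 change. Two-sided p-values were adjusted by Benjamini-Hochberg over 16946 genes, and genes under 0.05 were called. Standard errors divide a log2 fold change by the square root of its F statistic.

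The genes, the 33 lists and the tests were chosen with earlier results of these data known, so lists are described by counts and medians with no test. Of 1365 list entries 1362 were matched, 67 by an older symbol. Named genes were TTK, the 14 per direction with the largest smaller within-line change among genes that moved alike (at least 5 CPM in the higher group of each line, no overlap), up to 3 per list by averaged adjusted p, 4 per direction called in opposite directions, and 3 per direction called in the average but not in a line. Other genes are named as list members that moved alike, as the rest of the cholesterol list or as markers. Some list members are counted but not reported here. Coordinates are from GENCODE 29 on GRCh38, promoter windows from RefSeq. The steps were tested on simulated data.

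Alternatives were RLE size factors, DESeq2 1.42.0, limma-voom, other count filters and thresholds, an additive model, a replicate block, each line alone, and leaving out libraries. The fit without chromosome 4 was added after seeing the data.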

Additional observations from a re-analysis of the deposited data

Results flagged for a closer look

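For the genes named here, the change in SCC-15 minus the change in CAL-27 was tested in the same edgeR fit, and each value below is that difference on the log2 scale with an adjusted p under 0.05. Among genes that moved alike higher, the rise was smaller in SCC-15 for SORCS2 (-1.11), NGFR (-1.58), ST6GALNAC2 (-1.0), PERP (-0.17), SAMD9 (-0.43), BST2 (-0.25), IFI27 (-1.11), COL17A1 (-0.63), COL7A1 (-0.26), KLK10 (-1.21), SPRR1B (-1.40), DSP (-0.22), IGFBP3 (-0.52), AARS (-0.25), HERPUD1 (-0.21), RPL3 (-0.11), CTSB (-0.18) and FBLN1 (-0.19). It was larger in SCC-15 for JUN (0.41), RPL12 (0.14) and HLA-E (0.12). Among genes that moved alike lower, the fall was larger in SCC-15 for TTK (-0.67), TIMP2 (-0.23), AK4 (-0.50), MRM2 (-0.19), ASF1B (-0.17), TMEM38B (-0.24), ACACA (-0.19), RPTOR (-0.22), MAPKAP1 (-0.19), ICAM1 (-0.97), IKBKE (-0.23), UNG (-0.28), CBX5 (-1.13), SPINT1 (-0.15), LOXL2 (-0.52), UQCRB (-0.71) and SLC16A3 (-0.31). It was smaller in SCC-15 for ZBED6CL (0.99), FDFT1 (0.29), SQLE (0.33), FASN (0.36), SCD (0.26), LBR (0.46), FOXM1 (0.26), AEN (0.42), TAPBP (0.19), FTH1 (0.26) and GCLM (0.36).

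Genes called in opposite directions differed by -4.24 for ACKR3, -2.79 for ZNF750, -5.44 for KRT14, -2.67 for AKR1C2, 1.93 for FN1, 1.61 for GPAT3, 1.90 for DUSP4 and 1.35 for PLAUR. Genes called in the average but not in 1 of the lines differed by -3.55 for MMP10, 2.46 for PRKCQ, -2.18 for MAP6, -3.06 for PDE2A and -3.84 for CPE.

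Each of these differences compares 6 libraries of a line with 6 of the other. The knockdown of TTK was itself deeper in SCC-15 (-0.67), and its part in the other differences was not tested.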

How the results depend on the processing

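Of the 1147 genes that moved alike, 550 (240 higher and 310 lower) did so in every one of 20 settings of scaling, tool, filter and left-out libraries. Of 92 named genes that moved alike, 77 did. SLC16A3 kept the call in 5, MT-ND3 in 9, EGR2 in 10, LOXL2 and GRWD1 in 13 and RPL12 in 14 of the 20. An additive model with line and knockdown as terms called 1290 genes higher and 1709 lower in the average, and 1140 of the 1147 genes were among them. With an adjusted p under 0.01 in each contrast, 308 genes moved alike higher and 443 lower. With at least 1.5-fold in each line, 28 and 26 did. Leaving out 1 library at a time gave 1914 to 2276 higher and 2237 to 2610 lower averaged calls, 410 to 523 genes alike higher and 506 to 648 lower. It gave 2780 to 2898 averaged calls from 1 line only, 263 to 339 from neither and 158 to 196 from opposite changes, and 58.5% to 60.4% of genes called in both lines had the same direction. The averaged log2 change of TTK ran from -0.93 to -0.83. Genes alike higher and lower numbered 518 and 627 with RLE size factors, 443 and 552 with DESeq2, 462 and 638 with limma-voom, 515 and 473 with no count filter, and 552 and 612 with each line fitted alone. Deviations of same-numbered libraries from their group means correlated at no more than 0.03 across genes. Counting noise in single libraries lowers such a correlation, so it cannot exclude that replicate numbers pair the libraries. Both SCC-15 groups had number 1 as the outlying library. With a replicate block 2091 genes were called higher and 2691 lower in the average, 467 moved alike higher and 657 lower, and the TTK change was -0.88. Of the named genes, EGR2, RPL12, SLC16A3 and LOXL2 were not among those alike with the block. Genes near the minimum of 10 mean counts are the least precise at this depth.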
